A study of Mus musculus with 6 samples.

Results

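The NR4A family comprises 3 genes, Nr4a1, Nr4a2 and Nr4a3, found by symbol among the 41388 genes of the deposited count table. All 3 were present, and all 3 passed the filter on low counts. The cells were cultured from wild-type male mice and are labelled fibro-adipogenic progenitors, a stromal population of muscle with fibroblast and fat-cell fates. They were grown in medium with serum and FGF. A dose of 500 nM prostaglandin E2 (PGE2) was added once daily for 2 days in 3 libraries, and vehicle was added on the same schedule in the other 3. No source used here gives the time from the last dose to RNA extraction, the age of the mice, or the number of mice or cultures behind each library. The p-values therefore cover the spread among these 6 libraries, and that spread may be purely technical.

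The family was chosen by its known log2 fold changes in the same PGE2 comparison. The levels, changes and ratios of the 3 members are therefore given as a description, without p-values. Where a fit's threshold is named for them, nothing is supported with it.

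NR4A proteins are nuclear receptors that have no established physiological ligand and are called orphan receptors. Their ligand pocket is filled by bulky side chains, and activity is thought to be set largely by how much protein is made. The genes are immediate early genes, transcribed soon after stimuli that include cyclic AMP, calcium and growth factors, through CREB and, for Nr4a1, MEF2 and SRF. PGE2 is a lipid mediator, and its EP2 and EP4 receptors raise cyclic AMP. The proteins bind a DNA element called the NBRE as monomers, and Nr4a1 and Nr4a2 also bind DNA as heterodimers with retinoid X receptors.

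Nr4a1 (ENSMUSG00000023034), also called Nur77, lies on the plus strand at chr15:101254269-101274795 of GRCm38. Nr4a2 (ENSMUSG00000026826), also called Nurr1, lies on the minus strand at chr2:57106830-57124003. Nr4a3 (ENSMUSG00000028341), also called Nor1, lies on the plus strand at chr4:48045153-48086447. The longest annotated transcript of each has 8 exons, and these transcripts are 2553, 3568 and 5720 bases long. No other annotated gene overlapped any of the 3. Annotated transcripts of different members shared no run of 31 bases, the longest shared run being 27 bases between Nr4a2 and Nr4a3, so 100-base reads can tell the paralogs apart.

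The stretches before the RefSeq starts are shown because CREB binds the cyclic AMP response element (CRE), whose core is the letters TGACG on either strand. Capitals mark these cores, and a reverse-strand match reads CGTCA. Sequences are from RefSeq on GRCm38.p6, each given 5′ to 3′ on its gene's strand. The Nr4a1 stretch is chr15:101266596-101266845 on the plus strand, and the Nr4a2 stretch is chr2:57124004-57124253 on the minus strand. The Nr4a1 stretch lies before the RefSeq start but inside the annotated gene, in an intron of transcripts that begin further upstream. The Nr4a3 stretch is chr4:48045055-48045152 on the plus strand and ends where the first annotated exon begins, so it holds 3 of the 4 matches in that gene's window.
Nr4a1: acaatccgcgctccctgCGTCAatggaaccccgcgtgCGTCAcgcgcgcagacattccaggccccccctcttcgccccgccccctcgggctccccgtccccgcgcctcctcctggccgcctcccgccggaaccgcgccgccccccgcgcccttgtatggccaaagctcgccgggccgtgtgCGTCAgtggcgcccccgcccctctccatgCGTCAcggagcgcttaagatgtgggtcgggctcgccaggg
Nr4a2: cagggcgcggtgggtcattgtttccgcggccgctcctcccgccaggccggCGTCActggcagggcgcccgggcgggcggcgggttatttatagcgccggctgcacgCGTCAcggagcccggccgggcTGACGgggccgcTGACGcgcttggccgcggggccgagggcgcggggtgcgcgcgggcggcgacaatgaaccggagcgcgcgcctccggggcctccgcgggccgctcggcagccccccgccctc
Nr4a3: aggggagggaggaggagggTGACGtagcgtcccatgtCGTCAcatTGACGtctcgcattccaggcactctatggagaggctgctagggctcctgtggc

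In the full RefSeq window, from 250 bases before to 50 bases after the start, each member held 4 cores. Of 32851 windows of that length, 20.8% held at least 1 core and 0.231% held at least 4. With the first transcribed base at 0, the matches began at -233, -213, -69 and -40 in Nr4a1, at -200, -144, -123 and -111 in Nr4a2, and at -231, -213, -205 and -147 in Nr4a3. None of the 3 windows held the full palindrome TGACGTCA, which 1.79% of windows held and which counts as a core on each strand. None held the NBRE letters AAAGGTCA (1.51% of windows), a CArG box (1.63%) or a MEF2 box (0.557%). The GC box letters GGGCGG, searched on both strands and present in 35.7% of windows, occurred 3 times in Nr4a1, 5 times in Nr4a2 and once in Nr4a3. A TATAAA match, present on either strand in 13.6% of windows, was found at -164 in Nr4a2, on the reverse strand. These are matches of letters in a short window.

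Windows with at least 4 cores belonged to 69 genes, of which 62 were tested. Apart from the NR4A genes, the other 59 had a median log2 fold change (PGE2 over vehicle) of 0.012. The member of those 59 that passed the test was Coq10b, a mitochondrial coenzyme Q protein gene (0.67, edgeR adjusted p = 0.0402), named after its value was seen. The 3668 tested genes with at least 1 core had a median of 0.01, against -0.0047 for all 10559 tested genes with a window. The 124 tested genes with an NBRE in the window had a median of -0.0056, and 1 of them passed. Of all 10559 tested genes with a window, 33 passed, or 0.313%. With library number added as a block, the edgeR fit called 9 of the 124 higher and 12 lower, against 766 and 839 of the 10559. It called 8 of the 62 higher and 2 lower. All NR4A genes are among the 8 and were chosen by this same contrast, so nothing is read from that count.

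Totals ran from 21006044 counts in vehicle library 2 to 52730962 in PGE2 library 2. A count of 3 corresponded to 0.0582 to 0.142 CPM, the count scaled to the size of the library and so comparable between libraries. The 10 progenitor markers summed to 8170, 12800 and 15800 CPM in vehicle libraries 1 to 3. In PGE2 libraries 1 to 3 they summed to 8010, 13900 and 20100 CPM. Pdgfra was at 1280 CPM under vehicle and 1290 CPM under PGE2, Ly6a at 568 and 872, and Cd34 at 196 and 131. Some were low, with Dpp4 at 1.6 and 2.43 CPM, Pi16 at 6.56 and 12.8, and Lum at 8.3 and 4.89. Library number 1 stood apart in both groups. The summed CPM of 8 myogenic markers was 172, 56.1 and 36.3 in the vehicle libraries, in order of number, and 109, 13.8 and 13.5 in the PGE2 libraries. Of these markers, Pax7 was at 0.0233 CPM under vehicle and 0.0234 CPM under PGE2. Myog was at 8.9 and 4.34 CPM and Myh3 at 39.2 and 18.3 CPM, in the same order. Of 6 macrophage and leukocyte markers, Ptprc was at 0 in every library, and their sum ranged from 8.57 to 9.22 CPM under vehicle and from 11.5 to 12.3 CPM under PGE2. Endothelial markers summed to 21 to 46.4 and 18.9 to 33 CPM, pericyte and smooth muscle markers to 65.7 to 103 and 48 to 70.7 CPM, and Schwann cell markers to 6.91 to 8.09 and 4.24 to 5.1 CPM, with Sox10 at 0. No marker passed the edgeR test between groups without the block, which only 0.342% of all tested genes passed. In bulk libraries, fewer cells of a type and less RNA per cell cannot be told apart, and the part of other cells in the NR4A values was not tested.

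In vehicle libraries 1 to 3, Nr4a1 was at 11.1, 13.8 and 11.8 CPM. The PGE2 libraries, in the same order, were at 31.2, 56.6 and 49.4 CPM. Each PGE2 library was above each vehicle library, so the groups did not overlap. Among the PGE2 libraries number 1, the one with the most myogenic marker RNA, was the lowest. The means were 12.2 ± 1.44 and 45.8 ± 13.1 CPM (SD, n = 3 each). The log2 fold change was 1.91 ± 0.227 (SE), or 3.76-fold. Within numbered pairs the ratio of PGE2 to vehicle was 2.82, 4.10 and 4.20. Nr4a1 ranked 11th of 15186 tested genes by log2 fold change. Without PGE2 library 1 the log2 fold change was 2.13, and without PGE2 library 2 it was 1.73.

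Nr4a3 had the lowest level of the family. It was at 1.16, 0.71 and 0.994 CPM in vehicle libraries 1 to 3, which rest on 50, 15 and 43 counts. In PGE2 libraries 1 to 3 it was at 3.08, 3.78 and 4.03 CPM, from 143, 195 and 148 counts. The groups did not overlap, and vehicle library 2, the shallowest, was the lowest of all, with an exact 95% Poisson interval of 0.397 to 1.17 CPM that covers counting error only. The means were 0.955 ± 0.229 and 3.63 ± 0.491 CPM (SD, n = 3 each), and the log2 fold change was 1.89 ± 0.230. Within pairs the ratio was 2.65, 5.32 and 4.05. Counting alone would give a coefficient of variation of about 19.1% under vehicle, where the libraries varied by 24%.

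Nr4a2 had the smallest difference of the 3. In order of number, the vehicle libraries were at 15.98, 10.6 and 9.50 CPM and the PGE2 libraries at 18.9, 17.6 and 17.8 CPM. The groups did not overlap, although vehicle library 1 was close to the PGE2 libraries. The vehicle libraries varied by 28.8% around their mean and the PGE2 libraries by 3.77%, where counting alone would give 5.28% and 3.54%. The means were 12.0 ± 3.47 and 18.1 ± 0.683 CPM (SD, n = 3 each), and the log2 fold change was 0.59 ± 0.189. Within pairs the ratio was 1.18, 1.66 and 1.88, the smallest again in pair 1. In the paired fit, which adds the library number as a block, edgeR put the log2 fold change at 0.62 ± 0.127. Leaving out vehicle library 1 gave 0.85, and leaving out vehicle library 3 gave 0.43.

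**Figure D1:**
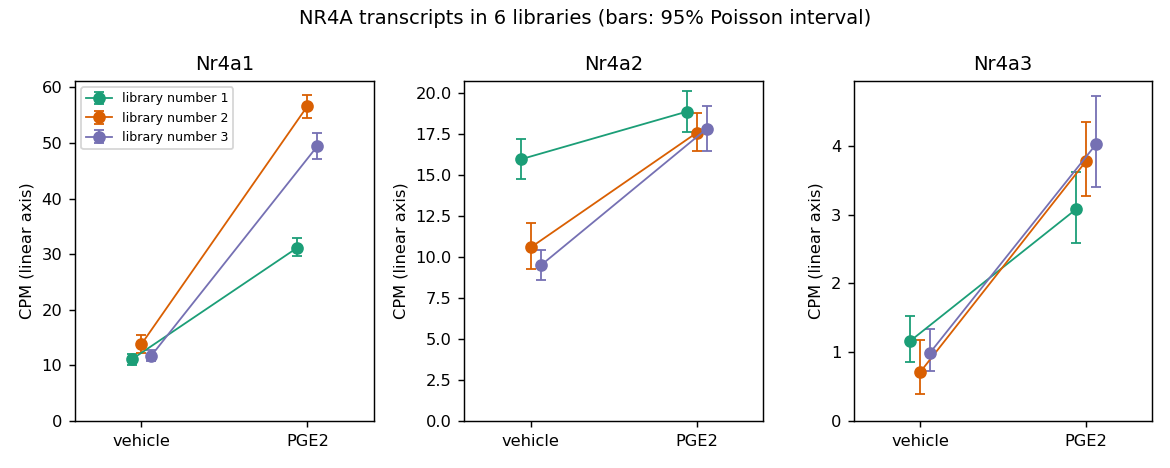
CPM of Nr4a1, Nr4a2 and Nr4a3 (vertical axes, each linear and starting at 0) in the vehicle and PGE2 libraries (horizontal axis), with lines joining libraries of the same number and bars giving the exact 95% Poisson interval of each count. Every line goes up, and the line of number 1 is the flattest for all 3 genes.

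In the edgeR test without the block, 2 of the 3 members, Nr4a1 and Nr4a3, passed the adjusted p threshold of 0.05, as did 0.342% of the 15186 tested genes (0.211% higher and 0.132% lower). The paired fit called all 3 higher, as it did 6.91% of tested genes, while 7.51% were lower and 14.4% changed either way. DESeq2 called 2 of 3, against 6.04% of genes, with 3.21% lower. The rule used this contrast, so nothing is read from these counts. CPM values of all 3 members did not overlap between groups, as for 25.9% of tested genes, and all 3 were higher under PGE2 in all 3 numbered pairs, as were 26.6%. Leaving out 1 library at a time changed these calls. Nr4a1 stayed past the threshold without PGE2 library 1 and lost it without any other library. Nr4a3 lost it without vehicle library 2 or 3 or PGE2 library 2 or 3. Without any 1 of these 4 libraries the unblocked edgeR test called 0 genes in the whole table, while 1871, 3697, 1494 and 2597 genes had an unadjusted p under 0.05. Across all libraries left out in turn, the log2 fold change ranged from 1.73 to 2.13 for Nr4a1, from 1.74 to 2.04 for Nr4a3 and from 0.43 to 0.85 for Nr4a2.

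Longer transcripts tended to be lower under PGE2, with a rank correlation across 15098 genes, which are not independent replicates, of -0.408. The pairs did not share this trend equally. Its slope per doubling of length was -0.139 in pair 1, -0.183 in pair 2 and -0.00629, nearly flat, in pair 3. With a length trend removed in each library, the log2 fold changes were 1.86 ± 0.228 for Nr4a1, 0.61 ± 0.189 for Nr4a2 and 2.02 ± 0.227 for Nr4a3. Nr4a3, with the longest transcript of the family, had a larger value after the correction, and Nr4a1 a smaller one. With it Nr4a3 passed the unblocked test and Nr4a1 did not, and 0.0988% of all tested genes passed.

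Levels were compared between the paralogs per unit length. Per kilobase of the longest annotated transcript, Nr4a1 was at 4.78 ± 0.564 and Nr4a2 at 3.37 ± 0.972 CPM per kb under vehicle, while Nr4a3 was at 0.167 ± 0.04. Nr4a1 and Nr4a2 were not separated beyond their spread there, since in vehicle library 1 Nr4a2 was the higher at 4.48 against 4.33 CPM per kb. Under PGE2 the levels were 17.9 ± 5.14, 5.08 ± 0.191 and 0.634 ± 0.0858 CPM per kb (SD, n = 3 for each), and the order Nr4a1, Nr4a2, Nr4a3 held in each PGE2 library. Summed over the family, the level was 8.32 ± 0.8 CPM per kb under vehicle and 23.6 ± 5.02 under PGE2. Nr4a1 made up 57.9% ± 8.55 of the sum under vehicle and 74.9% ± 6.41 under PGE2. The share of Nr4a2 was 40.1% ± 8.31 and 22.4% ± 6.15. Nr4a3 stayed a small part, at 2.02% ± 0.485 and 2.72% ± 0.311. Without division by length, Nr4a1 and Nr4a2 had similar shares under vehicle, at 49.0% ± 8.57 and 47.2% ± 8.23. Under PGE2 these shares were 66.9% ± 7.28 and 27.7% ± 6.89.

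The ratio of Nr4a2 to Nr4a1 within a library does not depend on library size. On the log2 scale it was 0.53, -0.38 and -0.31 in vehicle libraries 1 to 3 and -0.72, -1.69 and -1.47 in PGE2 libraries 1 to 3. All PGE2 libraries were below all vehicle libraries. The difference of the group means was -1.24. Within pairs it was -1.25, -1.30 and -1.16, so pair 1, which had the smallest difference in Nr4a1, showed nearly the same shift as the others.

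The log2 ratio of Nr4a2 to Nr4a3 was 3.77, 3.88 and 3.24 under vehicle and 2.61, 2.22 and 2.15 under PGE2, again without overlap. Its difference was -1.30. Nr4a3 over Nr4a1 overlapped between the groups, with log2 ratios of -3.23, -4.26 and -3.55 under vehicle and of -3.34, -3.90 and -3.62 under PGE2. That difference was 0.06, and omitting vehicle library 2 turned it to -0.23, omitting PGE2 library 1 to -0.08. Over the 6 libraries, the log2 CPM of Nr4a1 and Nr4a3 correlated at 0.94, of Nr4a2 and Nr4a3 at 0.846 and of Nr4a1 and Nr4a2 at 0.719. These values describe libraries that share the group difference. Among 15185 other tested genes, Nr4a1 ranked 225th by its correlation with Nr4a3.

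**Figure D2:**
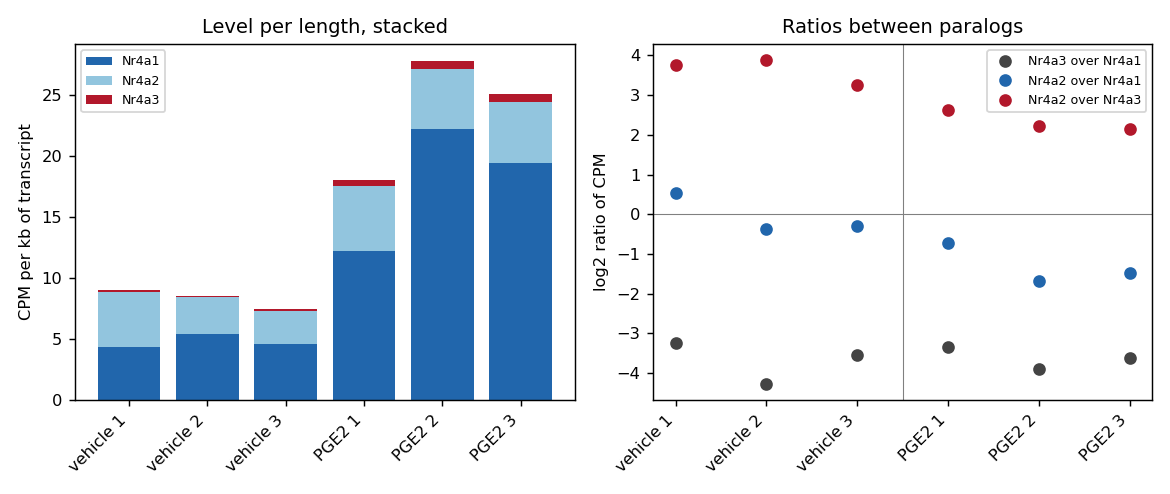
Left, CPM per kilobase of the longest annotated transcript for the 3 genes, stacked, in each library. Right, log2 ratios of CPM between paralogs in each library. The total in each PGE2 library is above that in each vehicle library, and both ratios with Nr4a2 on top are lower in the PGE2 libraries while Nr4a3 over Nr4a1 is not.

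Other nuclear receptors were set beside the family. Of the 46 other receptor genes of the mouse, 32 were tested, and 1 rose and 0 fell (edgeR, unblocked). Over all tested genes, 0.211% rose and 0.132% fell. DESeq2 called 3 of the receptors lower, against 3.21% of the genes it tested. An unadjusted p under 0.05 was found for 10 of the 32, 7 of them lower, and for 3049 of all 15186 tested genes. The median log2 fold change of the 32 receptors was -0.05, against -0.001 for all tested genes. The gene that rose was Vdr, the vitamin D receptor. It went from 29.3, 27.4 and 21.4 CPM under vehicle to 64.1, 87.8 and 74.7 CPM under PGE2, a log2 fold change of 1.54 ± 0.155 (edgeR adjusted p = 0.03). That call was lost without vehicle library 2 or 3 or PGE2 library 2 or 3, where the adjusted p was between 0.05005 and 0.177. In the paired fit 1 rose and 6 fell, where 6.91% of all tested genes rose and 7.51% fell. Among those that fell in it was Nr3c1, the glucocorticoid receptor (paired log2 fold change -0.58, edgeR adjusted p = 0.00231). Nr3c1 was at 134, 140 and 112 CPM in the vehicle libraries and 82.9, 84.2 and 89.3 CPM in the PGE2 libraries, and did not pass unblocked (edgeR adjusted p = 0.0614).

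By log2 fold change, Nr4a1 and Nr4a3 were the first and second of the 35 tested receptors and Nr4a2 the fifth, behind Vdr and the low-count Rxrg. The family was chosen by these changes, so this order is a description. By mean level per kilobase, Nr4a1 was 19th under vehicle and 7th under PGE2. In PGE2 libraries 1 to 3 it was 14th, 6th and 7th. Its vehicle level lay between Nr2c1, at 5.62 ± 0.269 CPM per kb, and Nr1h3, at 4.02 ± 0.281, and within 1 SD it overlapped with Nr1h3. In all 3 vehicle libraries Nr2c1 ranked above Nr4a1 and Nr1h3 below it. Under PGE2 its neighbours in that order were Rxrb, at 19.0 ± 1.56, and Vdr, at 17.3 ± 2.72, from which its spread did not separate it. Nr4a2 was 21st and 20th, and Nr4a3 34th and 27th. Thra, a thyroid hormone receptor gene, had the highest level in every library, at 67.5 ± 14 CPM per kb under vehicle. Among 15098 tested genes with a known length, the vehicle and PGE2 levels were at the 45.9th and 75.8th percentile for Nr4a1, the 39.4th and 47.7th for Nr4a2, and the 5.97th and 17.5th for Nr4a3.

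**Figure D3:**
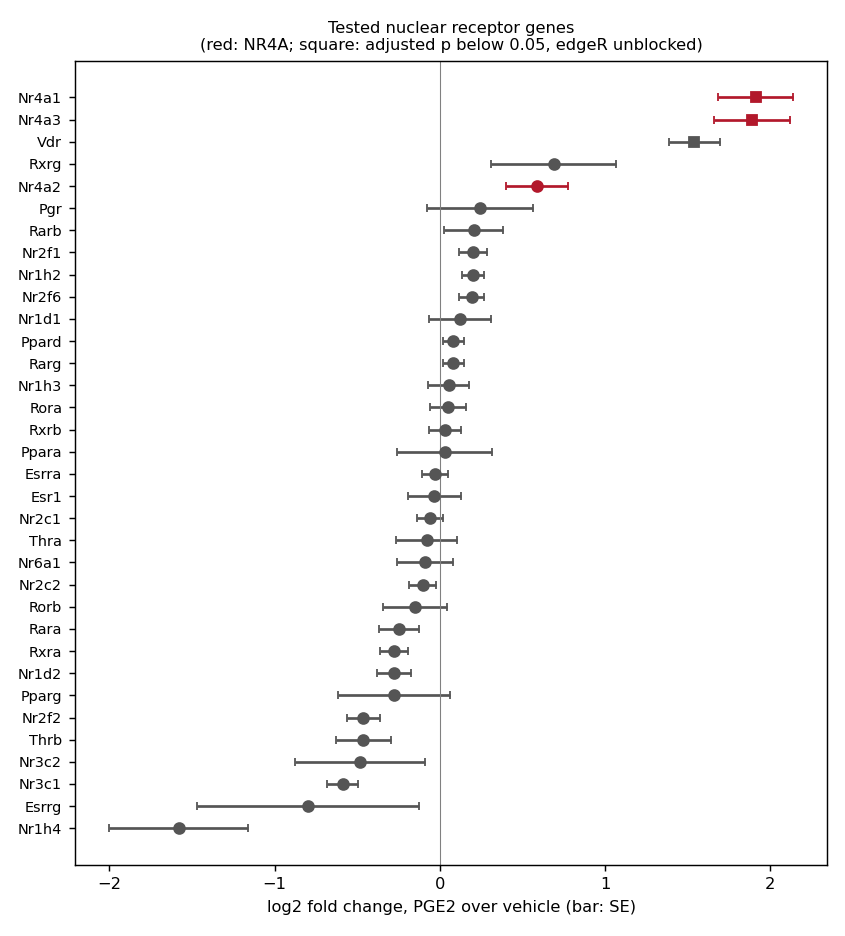
Log2 fold change of PGE2 over vehicle with its SE (horizontal axis) for 34 of the 35 tested nuclear receptor genes, sorted. Red marks the NR4A genes and squares mark genes past the unblocked edgeR threshold, which are Nr4a1, Nr4a3 and Vdr.

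The genes of proteins that NR4A receptors pair with or recruit were not called in the unblocked test. Of 17 partner and co-regulator genes, all tested, 0 passed (edgeR, unblocked), 7 had an unadjusted p under 0.05, and DESeq2 called 1. Of all 15186 tested genes, 0.342% passed unblocked and 3049 had an unadjusted p under 0.05, and DESeq2 called 6.04% of those it tested. The median log2 fold change of the 17 partner and co-regulator genes was -0.14. The heterodimer partner gene Rxra was at 132, 144 and 120 CPM under vehicle and at 105, 110 and 112 CPM under PGE2. The groups did not overlap, with a log2 fold change of -0.28 ± 0.084 that did not pass unblocked. The log2 fold change of Rxrb was 0.03 ± 0.0978. The paired fit called 1 higher and 4 lower, beside 6.91% and 7.51% of all tested genes. Higher in it was Hdac1, a histone deacetylase gene, at 0.27 (edgeR adjusted p = 0.0421). Lower in it were Rxra at -0.27 (edgeR adjusted p = 0.039) and Ncor1 at -0.32 (edgeR adjusted p = 0.0415). The coactivator genes Ncoa1, at -0.52 (edgeR adjusted p = 0.0149), and Ncoa2, at -0.39 (edgeR adjusted p = 0.0197), were lower too.

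Among 19 genes of the factors that switch NR4A genes on or hold them off, 1 rose (edgeR, unblocked), with a list median of 0.01. Of all tested genes, 0.211% rose. The gene of the list that rose was Crem, a CREB family gene that is itself induced by cyclic AMP. It was at 6.42, 7.19 and 7.60 CPM in the vehicle libraries and 11.8, 13.7 and 12.5 CPM in the PGE2 libraries, a log2 fold change of 0.84 ± 0.117 (edgeR adjusted p = 0.0416). The call was lost without any 1 library other than PGE2 library 1, with limma-voom and with the length trend removed. Creb1 itself was at -0.16 ± 0.0764, and its coactivators Crtc1, Crtc2 and Crtc3 were between -0.11 and 0.01. The paired fit, with 6.91% of all tested genes higher and 7.51% lower, called 4 higher, including Srf (0.26, edgeR adjusted p = 0.0412) and Hdac4 (0.43, edgeR adjusted p = 0.0467), and 1 lower, Mef2c (-0.55, edgeR adjusted p = 0.0113).

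Other immediate early genes of the cyclic AMP response had smaller differences than Nr4a1 and Nr4a3. The NR4A genes were chosen by their differences, so this comparison is a description. Of 10 on the list, all tested, Crem passed unblocked, as did 0.342% of all tested genes, and the list median was 0.48. Junb, an AP-1 subunit gene, was at 0.58 ± 0.149 and Ier2 at 0.49 ± 0.128, neither past the unblocked threshold (edgeR adjusted p = 0.122 and 0.126). Fos was at 0.52, Fosb at -0.14, Egr1 at -0.12 and Per1 at -0.0047. The paired fit called 6 higher and 0 lower, among them Fos, Junb and Ier2, where 6.91% of all tested genes were called higher and 7.51% lower.

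Genes reported as NR4A targets in other tissues were not called in the unblocked test. Of 26 on the list 17 were tested and 0 passed (edgeR, unblocked), where 0.342% of all tested genes passed. An unadjusted p under 0.05 was found for 5 of the 17, against 3049 of all 15186 tested genes. DESeq2 called 4, against 6.04% of the genes it tested. The median log2 fold change of the 17 was -0.003. Ret, a receptor tyrosine kinase gene and a Nurr1 target in dopamine neurons, was at 7.07, 6.86 and 5.66 CPM under vehicle and 11.5, 15.8 and 20.4 CPM under PGE2. Its log2 fold change was 1.29 ± 0.215 (edgeR adjusted p = 0.0669, paired 0.00579). Spp1, which encodes osteopontin, was at 0.81 ± 0.163 (edgeR adjusted p = 0.0958, paired 0.000875). Lpin1, a phosphatidate phosphatase gene, was at -0.47 ± 0.0838 (edgeR adjusted p = 0.0747, paired 0.00284). The paired fit called 2 higher, Ret and Spp1, and 5 lower, including the cyclin D genes Ccnd1 (-0.92) and Ccnd2 (-0.39). In that fit 7.51% of all tested genes were called lower and 6.91% higher.

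The genome around the 3 genes was examined next. Within 250 kb of the 3 members the count table held 31 genes, of which 16 were tested, and 1 rose (edgeR, unblocked). Of all tested genes, 0.211% rose. The neighbour that rose was 6030408B16Rik, an uncharacterised protein-coding gene at chr15:101293212-101297426, 18.4 kb beyond the end of Nr4a1. It was at 0.884, 1.04 and 1.11 CPM under vehicle and 2.69, 4.28 and 3.62 CPM under PGE2. Its log2 fold change of 1.80 ± 0.235 (edgeR adjusted p = 0.0402) differed from that of Nr4a1 by less than either SE, and it too was lowest among PGE2 libraries in number 1. The call was lost without any 1 library other than PGE2 library 1, with limma-voom and with the length trend removed. Between the 2 genes lies Atg101, an autophagy gene 9.5 kb from Nr4a1, at 0.50 ± 0.108 (edgeR adjusted p = 0.0982, paired 0.00353). Further on, the keratin gene Krt80 was at 0.94 ± 0.155 (edgeR adjusted p = 0.0644, paired 0.00136), from 3.26, 3.46 and 4.21 to 6.33, 7.10 and 7.59 CPM. Of 11 tested neighbours of Nr4a1, 9 had a positive log2 fold change, against 7562 of all 15186 tested genes, and the paired fit called 5 higher and 0 lower, against 6.91% and 7.51% of all tested genes. The neighbours of Nr4a2, Gpd2 and A930012O16Rik, were at -0.10 and -0.002. Those of Nr4a3 were Stx17 at -0.14, Invs at -0.19 and Erp44 at 0.36, of which the paired fit called Erp44.

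**Figure D4:**
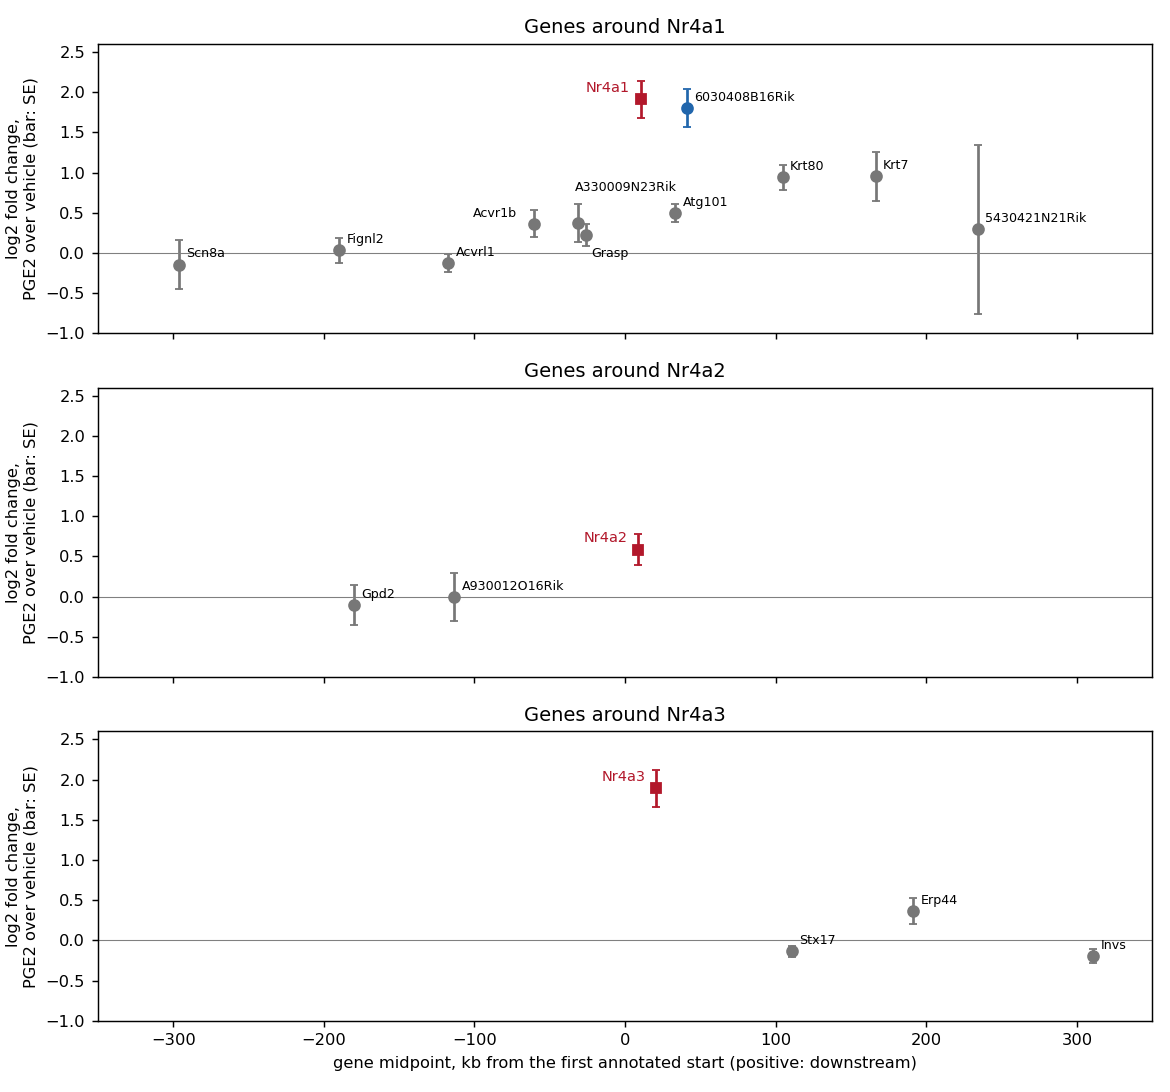
Log2 fold change of PGE2 over vehicle with its SE (vertical axis) for tested genes within 250 kb of each member, against the distance of the gene's midpoint from the member's first annotated start in kilobases, with downstream to the right. Red squares are the members, and the blue point, 6030408B16Rik, is the neighbour past the unblocked edgeR threshold.

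The genes with the pattern most like each member were ranked by Pearson correlation of log2 CPM over the 6 libraries, among 10324 named genes averaging 5 CPM or more. For Nr4a1 these were Rasl10b (0.996), Cxcl14 (0.995), Rgs16 (0.995), Pdhx (0.994) and Htra4 (0.994). Pdhx differed least between groups among these, with a log2 fold change of 0.14. Rasl10b, a small GTPase gene, was at 2.14, 2.46 and 2.27 CPM under vehicle and 6.63, 16.9 and 12.7 CPM under PGE2, so it shared the low value of PGE2 library 1. For Nr4a3 they were Cdr2 (0.999), Irak2 (0.995), Ptpla (0.995), Fermt2 (0.994) and Sptlc2 (0.993), whose differences between groups were smaller. Irak2, a kinase of interleukin 1 receptor signalling, had a log2 fold change of 0.67. For Nr4a2 they were Ankrd40 (0.995), Prpf19 (0.993), Ripk2 (0.992), Masp1 (0.991) and Gpaa1 (0.989), which were high in vehicle library 1 as Nr4a2 was. Ranking by deviations within numbered pairs kept 0 of the 5 for Nr4a1, 1 for Nr4a2 and 0 for Nr4a3. With Spearman rank correlation, 3 of the 5 were kept for Nr4a1, 0 for Nr4a2 and 2 for Nr4a3.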

How the data were processed

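The data are whole-number read counts per gene for 41388 genes in 6 libraries, deposited by the authors without normalization. Per the labels' protocols, libraries were made from 1 ug of RNA and sequenced as 100-bp paired reads, and the submitters' processing notes name mm10 as the genome. Aligner, counter, annotation release and strand setting: not given in the sources used here.

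Counts were tested with edgeR 4.0.16 in R 4.3.3 (filterByExpr, TMM scaling, robust quasi-likelihood test, Benjamini-Hochberg adjustment over all 15186 genes kept, threshold 0.05), PGE2 against vehicle with 3 libraries each. CPM are TMM-scaled. Log2 ratios used a prior count of 0.5 and correlations one of 2. The code was tested on simulated data. Alternatives were DESeq2 1.42.0, voom in limma 3.58.1, other scalings and filters, a length trend (lowess, span 0.3), the replicate block, and leaving out each library. Deviations from the group means correlated within the same number at 0.621, 0.169 and 0.422, so numbers were treated as pairing libraries. The labels state no pairing, and vehicle 3 with PGE2 2 reached 0.252. Of 41388 gene IDs, 40340 matched GENCODE vM21, which gave lengths and positions.

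The members and gene lists were chosen with earlier results of these data known. Named genes are the members, list members past the threshold or with the smallest p up to 3, and the 5 genes most like each member. All other named genes were chosen after their values were seen, and they exceed the 6 first allowed for. A comparison of protein sequences was planned and not run. A planned permutation test of the ratios between members is not reported, since the members were chosen by the same contrast. The values of 1 nuclear receptor gene are not reported here, though it is included in the counts, medians and ranks.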

Additional observations from a re-analysis of the deposited data

How the results depend on the processing

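All 3 members kept a positive log2 fold change in each of 17 alternatives, and Nr4a1 passed the threshold in 10 of them, Nr4a3 in 12 and Nr4a2 in 2. The members were chosen by this contrast and the alternatives refit the same 6 libraries, so this tally is a description and supports nothing. With the replicate block (pairing), 1049 genes were higher and 1140 lower, Nr4a2 passed at 0.62, and calls were 6 lower among other receptors, 5 among partners, 5 among upstream regulators, 7 among targets, 6 among immediate early genes and 6 among neighbours. With the block and the length trend together these were 1450, 1116, 0.63, 7 (and 3 higher receptors), 3, 9, 6, 6 and 6. Without the length trend, the block changed no call of Nr4a1 or Nr4a3. With it, Nr4a1 passed with the block and not without. DESeq2 called 388 genes higher and 441 lower, with 3 receptors lower, 1 partner, 4 targets, 3 immediate early genes and 3 neighbours. Without the filter there were 143 and 142, with 3 receptors lower, 1 partner, 3 targets and 3 neighbours. Limma-voom called 7 and 6, and 0 members (Nr4a1 1.89, Nr4a3 1.87), upstream regulators, immediate early genes or neighbours. The length trend alone called 9 and 6, with 1 member (Nr4a1 was lost at 1.86) and 0 of those same 3 lists. Library totals alone gave 34 lower genes and 1 lower receptor. The full palindrome in place of its core was found in 0 members, not 3. Without division by length, the Nr4a1 share moved from 57.9% to 49.0% under vehicle and from 74.9% to 66.9% under PGE2. The cause of these shifts was not tested.

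Leaving out 1 library gave 0 to 85 genes higher and 0 to 35 lower, 0 to 2 members, 0 to 1 receptors higher, and 0 to 1 upstream regulators, immediate early genes, neighbours and targets. Log2 fold changes ran from 1.73 to 2.13 for Nr4a1, 0.43 to 0.85 for Nr4a2 and 1.74 to 2.04 for Nr4a3. The ratio differences ran from -0.23 to 0.29 for Nr4a3 over Nr4a1, which changed sign without vehicle 2 (-0.23) or PGE2 1 (-0.08), from -1.52 to -0.95 for Nr4a2 over Nr4a1, and from -1.50 to -1.18 for Nr4a2 over Nr4a3. A prior count had no part in the shares, and length division none in the ratio differences, so those were not run. Nr4a3 in vehicle library 2 rests on 15 counts, which limits the precision of its ratios there.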
